A study of Mus musculus with 11 samples.

Results

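The comparison sets pre-HSCs, the blood stem cell precursors of the arterial wall, against hematopoietic stem cells (HSCs) of the fetal liver (FL), the organ in which HSCs mature and expand. Its members are the 13561 genes, of 37820 gene IDs in the table, with at least 1 FPKM (a fragment count set relative to transcript length and library size) in at least 2 of the 5 libraries, which are 3 of pre-HSCs and 2 of FL HSCs. Pre-HSCs were sorted from the aorta region and the vitelline and umbilical arteries as cells positive for CD31, CD144, ESAM, Kit and a Ly6a:GFP reporter. The labels date them E10.5 and the study's methods E11.5, and the embryos were pooled offspring of Ly6a:GFP males and superovulated B6C3F1/J females. FL HSCs came from E14.5 livers of B6C3F1/J by B6129SF1/J crosses and were sorted as lineage-negative, Sca1+, Kit+, CD150+ and CD48- cells. The fit also used 2 libraries each of endothelium (Endo), hemogenic endothelium (HE) and HSCs from adult bone marrow (BM). Endo and HE were sorted from the major arteries at E10.5. By the study's methods these embryos came from B6C3F1 females and males with GFP at the Runx1 locus. Endo was negative for that GFP and HE positive. BM HSCs came from B6C3F1/J and B6129SF1/J mice aged 6 to 8 weeks. The sample labels give 1 strain, B6129SF1, for all. Arterial tissue was digested with collagenase and livers were dissociated mechanically with lysis of red cells, so that stage, tissue, strain, dissociation and gate change together with the population and cannot be told apart. Both gates enrich for stem cells or their precursors and hold other cells too, and in such bulk samples fewer cells of a type and less RNA per cell cannot be told apart.

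Blood stem cells arise from endothelium. Endothelial cells of the embryonic arteries round up under the factor Runx1, bud into the lumen as clusters, and lose their vessel identity as they take on that of blood. Pre-HSCs still carry endothelial surface proteins, while FL HSCs no longer rely on them, divide rapidly and stand at the root of the erythroid, myeloid and lymphoid branches.

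The libraries of a population were alike. Across the 13561 genes, Pearson's r of log2(FPKM + 1) was at least 0.956 between pre-HSC libraries, 0.961 between the FL libraries, and 0.785 to 0.804 between the populations. The summed FPKM ranged from 569851 to 610013 in pre-HSCs and was 751594 and 648708 in FL HSCs. Read counts were not part of the table, so depth is unknown and counting intervals cannot be had. The endothelial markers Kdr, Tek and Tie1 were present in pre-HSCs, and the HSC markers Hlf and Slamf1 in FL HSCs. An exact 0 can be a failed estimate, since 63 members, none of them called, were listed at 0 in 1 library beside 5 FPKM or more in the others of its population, so such values are given as listed at 0. Libraries within a population differed in macrophage genes, whose summed FPKM was 2234, 834 and 4539 in the pre-HSC libraries and 1508 and 458 in the FL libraries. The study describes the libraries of a population as biological replicates, and the labels do not say whether they came from separate sorts. The p-values rest on a spread within populations that is shared over all 11 libraries of the 5 populations, BM HSCs included.

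Between pre-HSCs and FL HSCs, 3656 of the 13561 genes were called (27%), of which 1626 (12%) were higher and 2030 (15%) lower in FL HSCs. A call needed an adjusted p under 0.01 in limma's F test over the 5 populations of the study, an adjusted p under 0.05 in this contrast and at least a 2-fold change of FPKM + 1. Changes are given as log2 fold changes of FPKM + 1, FL HSCs minus pre-HSCs, each with its standard error (SE) and limma's adjusted p, and they understate the change of genes with low FPKM. The falls were the larger changes. Of the falling genes 409 changed at least 8-fold and 193 at least 16-fold, against 96 and 27 of the rising genes. All libraries of one population lay above all of the other for 5415 genes (39.9%) in favor of FL HSCs and for 3954 (29.2%) in favor of pre-HSCs. The median log2 fold change of all members was 0.14. With FPKM scaled to equal totals that median was -0.07, and 1121 genes rose and 2307 fell, so that the share of rises among the calls moved from 44.5% to 32.7%. With scaling by the median of ratios, 1102 rose and 2335 fell. Of the members, 1270 reached 1 FPKM in no FL library and 358 in no pre-HSC library, and these passed the filter through 1 population only. The 1270 held 897 of the 2030 falls, and the 358 held 250 of the 1626 rises. The counts of falls and rises, and of the larger changes, therefore depend in part on that filter.

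**Figure D1:**
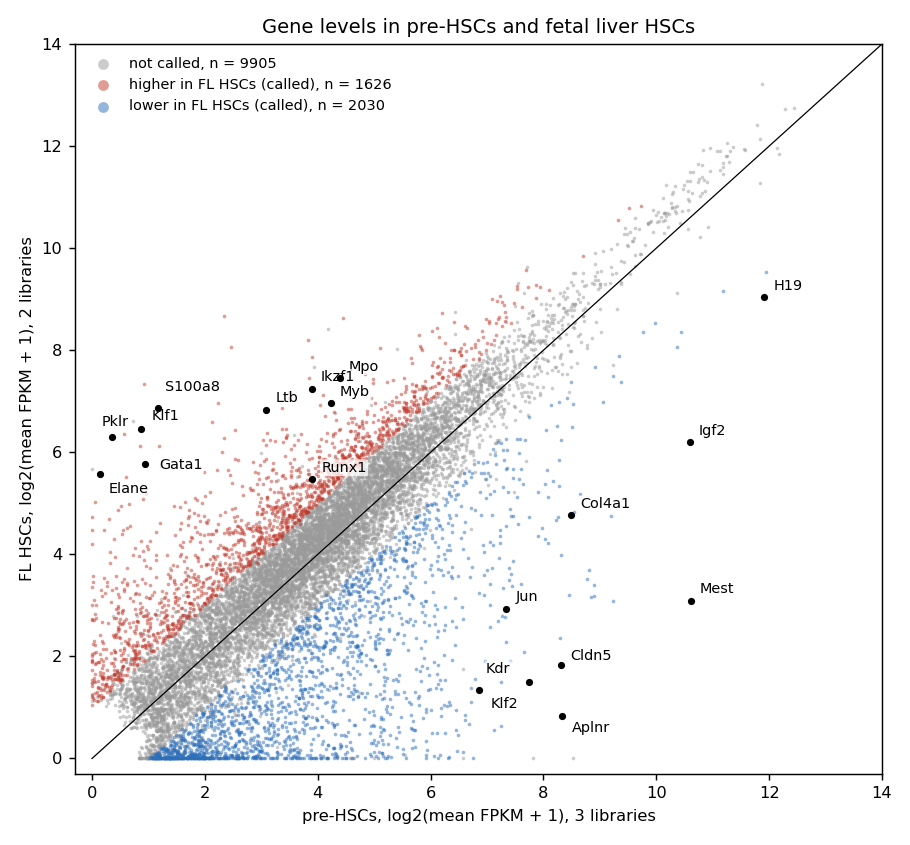
Each point is a gene, at log2(mean FPKM + 1) in the 3 pre-HSC libraries (x axis) and the 2 FL HSC libraries (y axis), with called genes in red (1626, higher in FL HSCs) and blue (2030, lower) and equal levels on the line. The blue points reach farther from the line than the red ones, with Mest, Aplnr and Cldn5 at the lower right and Pklr, Klf1 and S100a8 at the upper left.

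The endothelial program fell almost as a whole. Of 30 endothelial identity genes tested, 27 fell and 1 rose, with a median log2 fold change of -3.71. Kdr, the main VEGF receptor of vessels, on chromosome 5 from 76328852 to 76374483 of the NCBIM37 (mm9) genome, was at 223, 238 and 183 FPKM in the pre-HSC libraries and at 2.19 and 1.47 in the FL libraries (log2 fold change -6.25, SE 0.20, adjusted p = 2.61e-08). Plvap, which forms the diaphragms of fenestrated endothelium, was at 576, 615 and 606 FPKM in pre-HSCs and 9.42 and 5.67 in FL HSCs (log2 fold change -6.17, SE 0.18, adjusted p = 1.46e-08). Cldn5, a tight junction protein of endothelium, was at 284, 330.4 and 335 FPKM and then 3.68 and 1.43 (log2 fold change -6.55, SE 0.28, adjusted p = 1.09e-07). For each of these genes the 3 pre-HSC libraries were close to each other and far above both FL libraries. Tek and Tie1, the angiopoietin receptors, changed by less than the median of the list. Tek was at 101, 117 and 96.1 FPKM in pre-HSCs and 9.4 and 15.5 in FL HSCs (log2 fold change -3.01, SE 0.19, adjusted p = 1.45e-06). Tie1 was at 258, 286 and 257 FPKM and then 46.1 and 53.1 (log2 fold change -2.41, SE 0.11, adjusted p = 2.37e-07). The genes behind the pre-HSC gate, Pecam1, Cdh5 and Esam, are tied to that gate and fell too, with log2 fold changes of -3.86, -5.77 and -1.96. The only endothelial gene that rose was Eltd1, an adhesion receptor, at 49.3, 64.4 and 44.6 FPKM and then 109.8 and 108 (log2 fold change 1.05, SE 0.17, adjusted p = 0.000688), and it was under the 2-fold limit with FPKM scaled to equal totals (log2 fold change 0.81, adjusted p = 0.0109). The 2 genes of the list that were not called, the ETS factors Erg and Fli1, are used by endothelium and by blood stem cells alike, and were named after their values were seen. Erg was at 54.5, 66 and 48.8 FPKM in pre-HSCs and 64.3 and 87.2 in FL HSCs, and Fli1 at 62.7, 66.4 and 56.3 and 52.2 and 63.

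Arterial and venous genes fell together. Of 16 arterial genes 13 fell and 1 rose (median log2 fold change -3.63), and of 10 venous and lymphatic genes all 10 fell (median -4.40). Sox17, a factor of arterial and hemogenic endothelium, was at 32.2, 45.7 and 33.4 FPKM in pre-HSCs, was listed at 0 in 1 FL library and was at 0.0669 in the other (log2 fold change -5.19, SE 0.20, adjusted p = 7.54e-08). Efnb2, the ephrin that marks arteries, was at 47, 52.4 and 39 FPKM and then 0.778 and 1.74 (log2 fold change -4.41, SE 0.22, adjusted p = 2.98e-07). Its receptor Ephb4, a mark of veins, was at 133, 138 and 126 FPKM and then 5.03 and 4.84 (log2 fold change -4.49, SE 0.13, adjusted p = 1.81e-08). Both sides of this arterial and venous pair were thus present in pre-HSCs, and the venous one was the higher in all 3 libraries. Nr2f2, a factor that specifies veins, was at 50.9, 59.1 and 41 FPKM in pre-HSCs and 0.904 and 0.404 in FL HSCs (log2 fold change -4.96, SE 0.26, adjusted p = 4.57e-07). Aplnr, the apelin receptor, on chromosome 2 from 84976517 to 84980079 (mm9), was at 317, 335 and 315 FPKM in pre-HSCs and 1.05 and 0.516 in FL HSCs (log2 fold change -7.52, SE 0.14, adjusted p = 2.45e-09), the largest fall of any called gene after that of the imprinted gene Mest. The arterial gene that rose was Cxcr4, which is also the chemokine receptor that holds HSCs in their niche, at 7.62, 5.57 and 11.2 FPKM in pre-HSCs and 26.5 and 27.3 in FL HSCs (log2 fold change 1.66, SE 0.31, adjusted p = 0.0015).

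**Figure D2:**
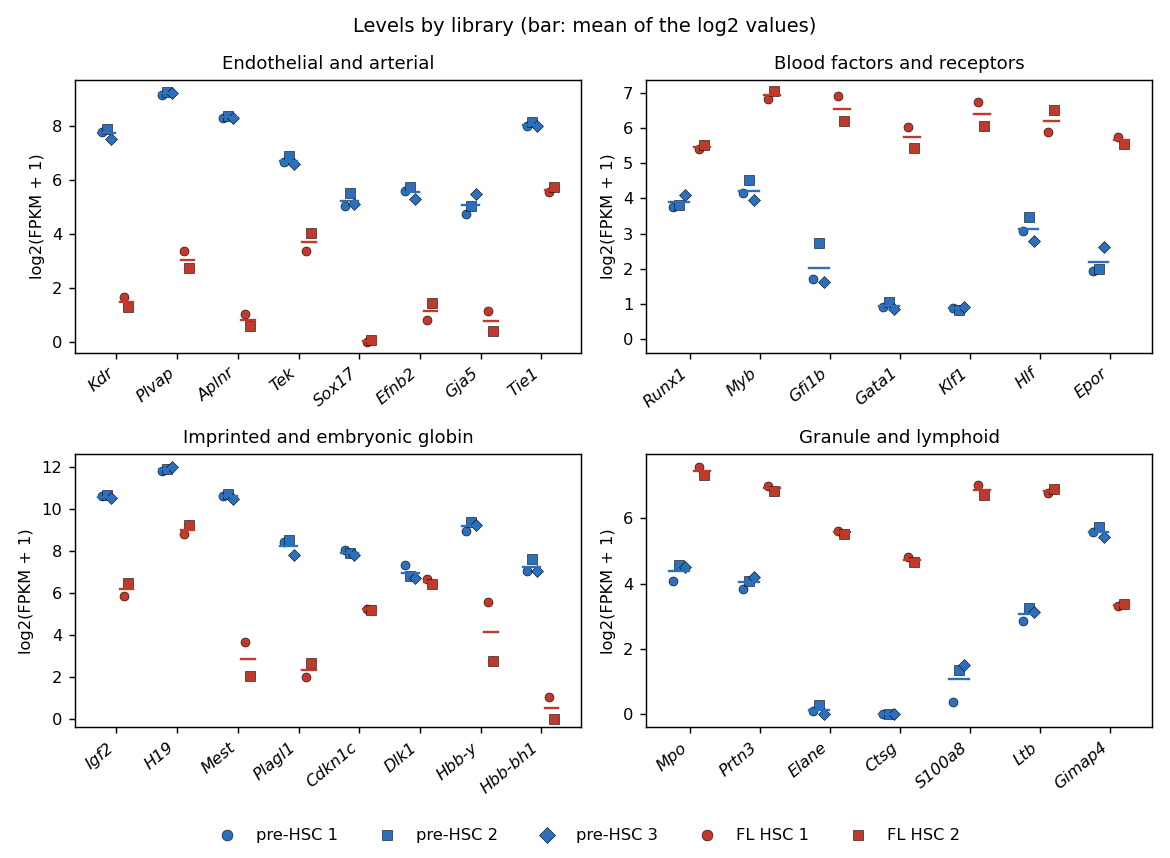
Each point is 1 library, at log2(FPKM + 1), for 7 or 8 genes in each of 4 groups; blue points are pre-HSC libraries 1 to 3, red points FL HSC libraries 1 and 2, and bars are the means of the log2 values. Red and blue points do not overlap for any of the genes shown, and Dlk1 has the smallest gap.

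Signals that shape the vessel wall fell with it. In the Notch pathway, which specifies arteries and hemogenic endothelium, 10 of 21 tested genes fell (47.6%, against 15% of all members). Only 1 rose (4.76%, against 12%), and the median log2 fold change was -1.22. The receptors went different ways. Notch4, the endothelial receptor, was at 32.1, 42.5 and 30.6 FPKM in pre-HSCs and 1.34 and 1.65 in FL HSCs (log2 fold change -3.84, SE 0.31, adjusted p = 7.67e-06). Notch1 was at 23.5, 27.6 and 21.1 FPKM and then 15.3 and 11.5, a difference under the 2-fold limit (log2 fold change -0.81, SE 0.24, adjusted p = 0.0194) that passed it with FPKM scaled to equal totals (log2 fold change -1.04, adjusted p = 0.0141). Notch2 was the only gene of the list that rose, from 4.92, 3.14 and 4.37 FPKM to 13.8 and 15.9 (log2 fold change 1.64, SE 0.28, adjusted p = 0.000983). Of the ligand genes Dll1, Dll4, Jag1 and Jag2, the first 3 fell and Jag2 was not called, at 9.87, 13.7 and 10.3 FPKM in pre-HSCs and 6.68 and 7.5 in FL HSCs. Jag1 was at 16.8, 17.3 and 17.4 FPKM in pre-HSCs and 0.151 and 0.236 in FL HSCs (log2 fold change -3.93, SE 0.20, adjusted p = 3.93e-07). Dll1 was at 24.9, 22.2 and 17.2 FPKM in pre-HSCs, at 0.132 in 1 FL library and listed at 0 in the other. Hes1, a target of the pathway, was at 33.8, 44.9 and 26.7 FPKM and then 2.42 and 1.04 (log2 fold change -3.74, SE 0.26, adjusted p = 2.7e-06).

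Of 19 genes of the BMP and TGF-beta pathway 15 fell and none rose (median log2 fold change -1.58). Bmp4, a ligand that patterns the ventral mesoderm and the aortic floor, was at 23.2, 20.6 and 21 FPKM in pre-HSCs, at 0.731 in 1 FL library and listed at 0 in the other (log2 fold change -4.10, SE 0.24, adjusted p = 9.13e-07). Acvrl1, an endothelial receptor for BMP9 and BMP10, was at 58.8, 62.3 and 61.6 FPKM and then 2.51 and 0.587 (log2 fold change -4.71, SE 0.26, adjusted p = 6.3e-07). Smad1, the transducer inside the cell, changed less, from 21.9, 24 and 21.6 FPKM to 8.34 and 8.4 (log2 fold change -1.32, SE 0.14, adjusted p = 3.89e-05). The ligand Tgfb1 was not called, at 106, 109.7 and 125 FPKM and then 175 and 114, and its libraries overlapped. Among 20 genes of VEGF, angiopoietin and adrenomedullin signaling 15 fell and 1 rose (median -2.77). The gene that rose encodes a ligand: Angpt1, which activates Tek, was at 7.99, 8.47 and 6.14 FPKM in pre-HSCs and 22.3 and 38.4 in FL HSCs (log2 fold change 1.84, SE 0.24, adjusted p = 0.000196), while the level of its receptor Tek fell as above. Vegfa was not called, at 12.1, 11.3 and 11.3 FPKM and then 9.23 and 15.5.

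Matrix genes fell throughout. All 30 tested genes for collagens, laminins and other matrix proteins fell, with a median log2 fold change of -4.28, and 29 of them fell after quantile normalization. Col4a1, a collagen of basement membranes, was at 364, 386 and 323 FPKM in pre-HSCs and 22.9 and 29.5 in FL HSCs (log2 fold change -3.73, SE 0.17, adjusted p = 1.56e-07). Col15a1, another basement membrane collagen, was at 78.4, 87 and 72.6 FPKM in pre-HSCs, and was listed at 0 in 1 FL library and at 0.0392 in the other (log2 fold change -6.30, SE 0.13, adjusted p = 2.45e-09). Sparc, a matrix protein that binds collagen, was at 461, 493 and 479 FPKM and then 9.82 and 6.35 (log2 fold change -5.75, SE 0.29, adjusted p = 3.14e-07). The fibrillar collagens Col1a1, Col1a2 and Col3a1, which fibroblasts and mural cells make, varied more among pre-HSC libraries. Col1a1 was at 150.1, 58.2 and 83 FPKM in pre-HSCs, highest in replicate 1, and at 0.255 and 1.34 in FL HSCs (log2 fold change -5.73, SE 0.62, adjusted p = 5.32e-05). Markers of mural and mesenchymal cells moved in step: all 16 tested fell, and the summed FPKM of the 19 genes was 667, 318 and 398 in the pre-HSC libraries and 8.64 and 15.6 in the FL libraries. Pdgfrb, a defining pericyte receptor, was low in both, at 5.42, 2.37 and 3.36 and 1.41 and 0.409 FPKM, and Acta2, smooth muscle actin, was at 87.2, 50.2 and 60.8 FPKM in pre-HSCs, at 0.0717 in 1 FL library and listed at 0 in the other. The part of such cells in the matrix result was not tested.

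Genes of the embryonic body plan and of fetal growth were lower in FL HSCs. Of 31 Hox genes tested, the homeobox factors that give cells their position along the body axis, 21 fell and none rose (median log2 fold change -1.57). Hoxb9 was at 12.3, 11.7 and 9.86 FPKM in pre-HSCs and 0.323 and 0.345 in FL HSCs (log2 fold change -3.19, SE 0.20, adjusted p = 1.09e-06). The D cluster gene Hoxd8 was at 13.8, 13.9 and 15 FPKM in pre-HSCs and was listed at 0 in both FL libraries. The other 10 were not called, among them Hoxa2, Hoxa3, Hoxa9 and Hoxb4, the latter pair named after their values were seen. Hoxa9 was at 42.6, 50.4 and 42.9 FPKM in pre-HSCs and 56.2 and 71.1 in FL HSCs (log2 fold change 0.48, SE 0.17, adjusted p = 0.0434). Hoxb4 was at 5.31, 5.4 and 4.69 FPKM and then 2.22 and 4.43 (log2 fold change -0.55, SE 0.29, adjusted p = 0.138). Hoxb5, which is also on the list of HSC-enriched genes, fell from 3.88, 4.41 and 4.07 FPKM to 0.985 and 2.27, just past the 2-fold limit (adjusted p = 0.00609 by limma). Its log2 fold change was under that limit after quantile normalization (-0.71), without pre-HSC replicate 2 (-0.96) and without FL replicate 1 (-0.64).

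Imprinted genes, of which only the maternal or the paternal copy is read and many of which set fetal growth, included the called gene with the largest fall. Of 22 tested, 14 fell and 1 rose, with a median log2 fold change of -2.21. Mest, on chromosome 6 from 30673547 to 30698457 (mm9), was at 1549, 1687 and 1442 FPKM in pre-HSCs and 11.9 and 3.18 in FL HSCs (log2 fold change -7.73, SE 0.39, adjusted p = 3.52e-07). Igf2, the fetal growth factor, was at 1555, 1625 and 1459 FPKM and then 56.5 and 89 (log2 fold change -4.43, SE 0.19, adjusted p = 1.16e-07). H19, the noncoding RNA of the same locus, was at 3606, 3861 and 4110.0 FPKM and then 448 and 602 (log2 fold change -2.89, SE 0.18, adjusted p = 1.08e-06), and remained among the abundant transcripts of FL HSCs. Plagl1, a zinc finger factor of the imprinted network, was at 340.5, 368 and 227 FPKM and then 2.95 and 5.28 (log2 fold change -5.94, SE 0.34, adjusted p = 8.06e-07). Cdkn1c, which encodes the CDK inhibitor p57, was at 261, 239 and 220.1 FPKM and then 37.2 and 35.1 (log2 fold change -2.69, SE 0.12, adjusted p = 1.84e-07). Dlk1, a Notch-like ligand and fetal liver progenitor marker, was not called, at 162, 111 and 103 FPKM and then 101 and 84.4. The gene that rose, the transporter gene Slc22a18, was at 2.6, 3.55 and 2.88 FPKM and then 6.86 and 7.48 (log2 fold change 1.03, SE 0.24, adjusted p = 0.00615), and it was not called with FPKM scaled to equal totals. Fetal identity genes as a list did not move together: Hmga1, a chromatin protein, rose from 191, 227 and 200.5 FPKM to 819 and 695 (log2 fold change 1.87, SE 0.17, adjusted p = 1.42e-05), while Hmga2 was at 117, 119.6 and 95.5 and 81.5 and 111 FPKM and Lin28b, which keeps fetal blood programs, at 7.9, 9.09 and 8 and 6.7 and 12.6, neither of them called.

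**Figure D3:**
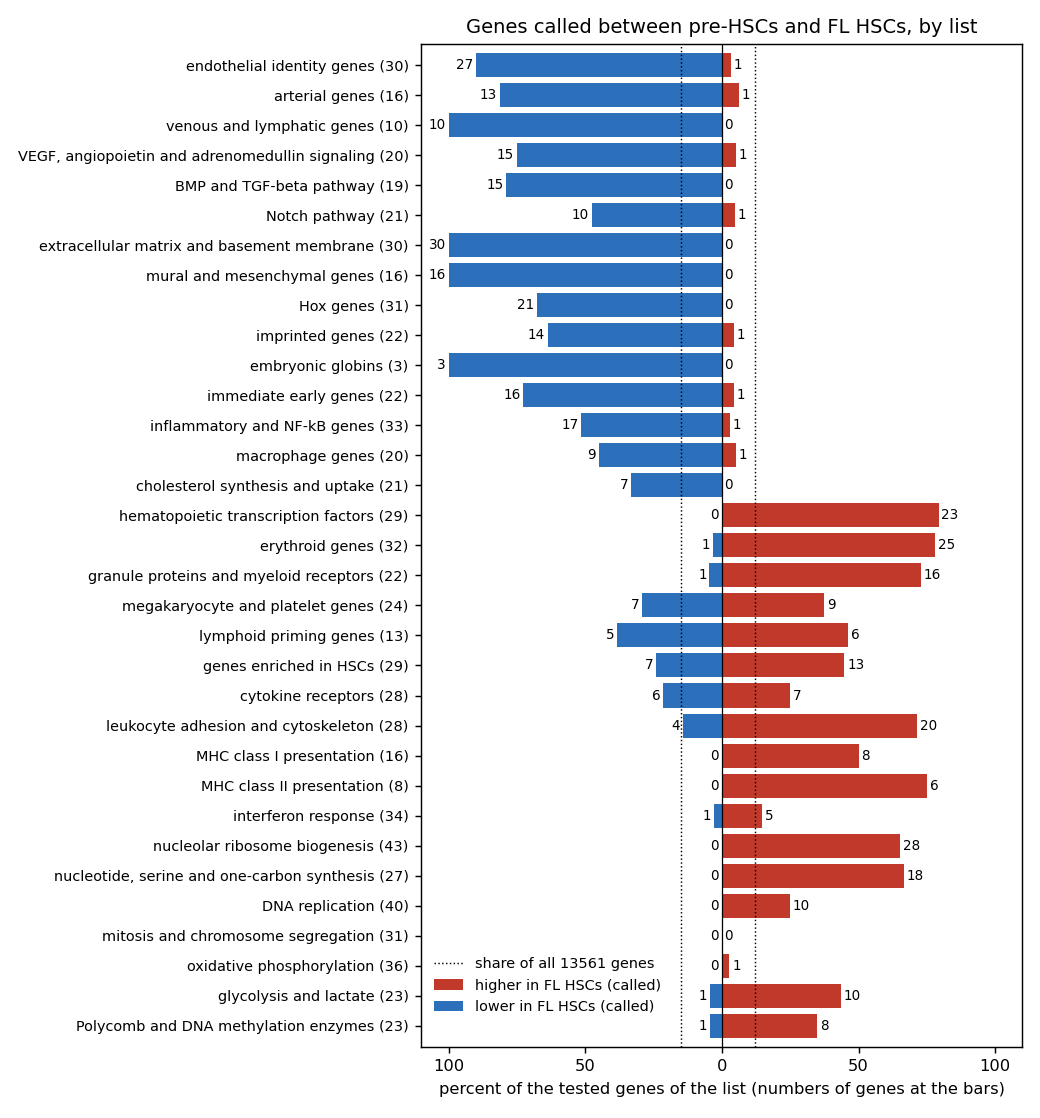
Bars give the percent of each list's tested genes (number in parentheses) that were called higher (red, to the right) or lower (blue, to the left) in FL HSCs, with the numbers of genes at the bar ends and the share of all 13561 genes as dotted lines, 12% higher and 15% lower. All tested matrix, mural and venous genes are on the blue side, hematopoietic factors and ribosome biogenesis genes on the red side, and the mitosis list has no call.

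The blood program was the main rise. Of 29 hematopoietic transcription factors tested 23 rose and none fell (median log2 fold change 1.58), and 20 rose with FPKM scaled to equal totals. Runx1, which drives the emergence of blood from endothelium, was at 12.6, 13.1 and 16.1 FPKM in pre-HSCs and 41.7 and 45.3 in FL HSCs (log2 fold change 1.58, SE 0.16, adjusted p = 3.48e-05). Gfi1 and Gfi1b are repressors that silence endothelial genes downstream of Runx1. Gfi1b was at 2.28, 5.7 and 2.04 FPKM in pre-HSCs and 119 and 72.8 in FL HSCs (log2 fold change 4.54, SE 0.53, adjusted p = 8.26e-05). Gfi1 was at 11.3, 24.2 and 13.8 FPKM and then 45.2 and 69.4 (log2 fold change 1.78, SE 0.45, adjusted p = 0.00855), a rise that was not called without FL replicate 2 (log2 fold change 1.48, adjusted p = 0.0702). Myb, required for definitive blood, was at 16.9, 22.1 and 14.6 FPKM and then 113 and 134 (log2 fold change 2.74, SE 0.25, adjusted p = 1.79e-05). Bcl11a, a factor of lymphoid and stem cells that also silences fetal globin, was at 12.2, 13.6 and 13.4 FPKM and then 66.7 and 75.2 (log2 fold change 2.35, SE 0.14, adjusted p = 9.69e-07). Nfe2, of platelet and red cell lineages, was at 11.7, 18.7 and 17.6 FPKM and then 146 and 130.4 (log2 fold change 3.06, SE 0.20, adjusted p = 2e-06). In all of these the FL libraries lay above the pre-HSC libraries. Ets1, an ETS factor of endothelium and lymphocytes, went the other way, from 94.6, 109 and 78.7 FPKM to 4.61 and 6.76 (log2 fold change -3.84, SE 0.19, adjusted p = 3.08e-07).

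HSC-enriched genes did not move as a block. Of 29 tested, 13 rose (44.8%, against 12% of all members) and 7 fell (24.1%, against 15%). Their median log2 fold change was 0.48, and 10 rose and 8 fell with FPKM scaled to equal totals. Hlf, a factor of HSC maintenance, was at 7.45, 10.1 and 5.95 FPKM in pre-HSCs and 58.1 and 91.7 in FL HSCs (log2 fold change 3.09, SE 0.24, adjusted p = 5.28e-06). Slamf1 encodes CD150, which the FL gate selects, so its log2 fold change of 3.27 is tied to that gate. Cd48, whose protein that gate excludes, rose: it was at 2.94, 2.45 and 6.09 FPKM in pre-HSCs and 35.9 and 16.6 in FL HSCs (log2 fold change 2.47, SE 0.37, adjusted p = 0.000445), so its RNA went against the gate. Ifitm1 was at 54.3, 75.2 and 74.1 FPKM and then 344 and 345 (log2 fold change 2.34, SE 0.15, adjusted p = 1.3e-06). Several genes that mark both HSCs and endothelium were higher in pre-HSCs. Procr, the endothelial protein C receptor, was at 104, 138 and 120.2 FPKM and then 43.1 and 64.9 (log2 fold change -1.16, SE 0.19, adjusted p = 0.000849), and its change missed 2-fold once FL replicate 1 was left out (log2 fold change -0.87, adjusted p = 0.00931). Fgd5, an exchange factor, was at 59.2, 68.4 and 50.6 FPKM and then 17.3 and 26.3 (log2 fold change -1.42, SE 0.20, adjusted p = 0.000277). Mecom, an HSC factor, was not called, at 22.7, 25.9 and 22.5 FPKM in pre-HSCs and 24.5 and 52.3 in FL HSCs, where the libraries of the populations overlapped. Ly6a, the gene behind both the Sca1 gate and the reporter, was at 6.83, 7.09 and 3.57 FPKM in pre-HSCs and 3.9 and 9.99 in FL HSCs, and the populations overlapped.

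Cytokine receptor genes moved in both directions. Of 28 tested 7 rose (25%, against 12% of all members), 6 fell (21.4%, against 15%) and 15 were not called (median log2 fold change 0.30). Epor, the erythropoietin receptor, was at 2.8, 2.97 and 5.13 FPKM in pre-HSCs and 52.8 and 46.2 in FL HSCs (log2 fold change 3.48, SE 0.23, adjusted p = 1.58e-06). Il17ra was at 6.46, 5.8 and 7.97 FPKM and then 30.3 and 29.4 (log2 fold change 2.01, SE 0.18, adjusted p = 1.51e-05). Lifr, the receptor for leukemia inhibitory factor, was at 12.1, 12.3 and 9.82 FPKM and then 0.0513 and 0.136 (log2 fold change -3.50, SE 0.18, adjusted p = 3.68e-07). Its partner Il6st, also the signaling chain for IL-6, was at 23, 20.7 and 21.8 FPKM and then 5.97 and 8.46 (log2 fold change -1.49, SE 0.20, adjusted p = 0.000216). Both chains of that receptor pair were therefore lower in FL HSCs. Ifnar1, a chain of the type I interferon receptor, was at 48.4, 42.9 and 52 FPKM and then 17.1 and 20.8 (log2 fold change -1.29, SE 0.14, adjusted p = 6.05e-05). Csf1r, the macrophage growth factor receptor, was also called lower, and its values and the limits of that call stand with the myeloid receptors.

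Erythroid genes were low in pre-HSCs and clearly expressed in FL HSCs. Of 32 tested 25 rose and 1 fell, with a median log2 fold change of 2.21, and 21 rose with FPKM scaled to equal totals. Klf1, the master factor of red cell genes, on chromosome 8 from 87425827 to 87429194 (mm9), was at 0.837, 0.757 and 0.873 FPKM in pre-HSCs and 107 and 66.6 in FL HSCs (log2 fold change 5.55, SE 0.36, adjusted p = 1.65e-06). Gata1, its partner, on the X chromosome from 7536386 to 7555197, was at 0.871, 1.05 and 0.799 FPKM and then 64.7 and 42.6 (log2 fold change 4.81, SE 0.31, adjusted p = 1.48e-06). Pklr, the pyruvate kinase of red cells and liver, was at 0.263, 0.18 and 0.4 FPKM and then 86.8 and 69.7 (log2 fold change 5.95, SE 0.38, adjusted p = 1.35e-06). Ermap, a red cell membrane protein, was at 1.04, 0.532 and 0.826 FPKM and then 67.1 and 70.5 (log2 fold change 5.29, SE 0.35, adjusted p = 2.02e-06). Icam4, a blood group adhesion protein, was at 0.253, 1.13 and 0.366 FPKM and then 38.5 and 22.7 (log2 fold change 4.31, SE 0.30, adjusted p = 2.59e-06). None of these 5 genes exceeded 1.13 FPKM in any pre-HSC library. Alas2 and Slc4a1, which encode an enzyme of heme synthesis and an anion exchanger of late red cells, were not called and were named after their values were seen. Alas2 was at 2.43, 2.16 and 1.71 FPKM in pre-HSCs and 1.81 and 0.811 in FL HSCs, and Slc4a1 at 2.73, 3.54 and 2.41 and 7.29 and 1.81. The gene that fell was the adult alpha globin Hba-a2, at 20.0, 32.9 and 28.9 FPKM and then 17.5 and 2.81 (log2 fold change -1.72, SE 0.51, adjusted p = 0.0188), a call that was lost without FL replicate 2 and with only the 5 libraries in the fit.

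Promoters of the erythroid genes that rose often held the GATA word. The word AGATAA, or its reverse complement, stood in 7 of 17 (41.2%) of those with a promoter (250 bases before to 50 after the start of transcription) in the RefSeq table of the GRCm38.p6 build, against 580 of 9085 (6.38%) promoters of the members and 11.4% of all 27025. A match of this kind is a description and shows no binding. The 4 promoters whose word lay 43 to 56 bases before the start are given, each as the 120 bases that end at the start, 5′ to 3′ on the strand of the gene, with the word in capitals. Epor lies at chr9:21963577-21963696 (minus strand), Rhd, the Rh antigen gene, at chr4:134864416-134864535 (plus), Kel, the Kell antigen gene, at chr6:41704326-41704445 (minus) and Icam4 at chr9:21029312-21029431 (plus).
Epor: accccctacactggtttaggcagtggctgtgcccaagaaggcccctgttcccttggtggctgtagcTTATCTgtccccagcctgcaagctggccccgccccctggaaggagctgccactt
Rhd: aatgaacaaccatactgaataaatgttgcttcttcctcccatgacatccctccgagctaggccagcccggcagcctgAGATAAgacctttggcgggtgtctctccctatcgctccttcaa
Kel: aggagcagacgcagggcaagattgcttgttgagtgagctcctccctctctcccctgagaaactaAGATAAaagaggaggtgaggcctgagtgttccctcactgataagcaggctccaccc
Icam4: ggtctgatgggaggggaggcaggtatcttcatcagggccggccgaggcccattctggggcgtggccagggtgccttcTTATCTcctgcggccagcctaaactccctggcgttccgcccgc
In Rhd and Kel the word reads AGATAA on the strand of the gene, and in Epor and Icam4 it reads as its reverse complement.

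Globins of the yolk sac went the other way. Hbb-y, an embryonic beta-like globin, was at 501, 663 and 601 FPKM in pre-HSCs and 46 and 5.71 in FL HSCs (log2 fold change -5.04, SE 0.60, adjusted p = 9.98e-05). Hba-x, the embryonic alpha-like globin, was at 138, 202 and 142 FPKM and then 6.63 and 1.07 (log2 fold change -5.33, SE 0.44, adjusted p = 7.86e-06). Hbb-bh1 was at 131, 192 and 132 FPKM in pre-HSCs, at 1.09 in 1 FL library and listed at 0 in the other (log2 fold change -6.70, SE 0.29, adjusted p = 1.23e-07). Their sum was 769, 1058 and 875 FPKM in the pre-HSC libraries, while it was between 7890 and 11227 in the 4 Endo and HE libraries of the study, the endothelial populations sorted at E10.5. Whether free red cell RNA had a part in these values was not tested.

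Granule proteins of neutrophil precursors were among the largest rises. Of 22 granule protein and myeloid receptor genes tested 16 rose and 1 fell (median log2 fold change 2.25). Mpo, myeloperoxidase, was at 15.9, 22.6 and 21.7 FPKM in pre-HSCs and 190.0 and 160.0 in FL HSCs (log2 fold change 3.07, SE 0.19, adjusted p = 1.38e-06). Prtn3, a granule protease of the same progenitors, was at 13.3, 15.9 and 17.2 FPKM and then 127 and 114 (log2 fold change 2.88, SE 0.20, adjusted p = 2.12e-06). These genes were thus already expressed in all 3 pre-HSC libraries. The neighboring protease gene Elane was at 0.0675 and 0.222 FPKM in 2 pre-HSC libraries, was listed at 0 in the other, and was at 48.3 and 44.4 in FL HSCs (log2 fold change 5.44, SE 0.40, adjusted p = 3.54e-06). Ctsg, cathepsin G, was listed at 0 in all pre-HSC libraries and was at 27 and 24.1 FPKM in FL HSCs. S100a8, a calcium-binding protein of neutrophils, was at 0.307, 1.55 and 1.85 FPKM and then 129 and 104 (log2 fold change 5.78, SE 0.31, adjusted p = 4.68e-07). The gene that fell was Csf1r, the macrophage growth factor receptor, at 85.8, 26.3 and 164 FPKM in pre-HSCs and 33.2 and 4.79 in FL HSCs (log2 fold change -2.38, SE 0.78, adjusted p = 0.0287). Its libraries overlapped, and it was not called without FL replicate 2, without pre-HSC replicate 1 or 3, or with only the 5 libraries in the fit.

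Lymphoid and megakaryocyte genes split. Of 28 listed lymphoid genes 13 were tested. Of these 6 rose (46.2%, against 12% of all members) and 5 fell (38.5%, against 15%), with a median log2 fold change of 0.86. The listed genes Il7r, Rag1 and Rag2 did not pass the filter, each at most at 0.334 FPKM in the 5 libraries. Ltb, lymphotoxin beta, was at 6.23, 8.53 and 7.69 FPKM in pre-HSCs and 108 and 118 in FL HSCs (log2 fold change 3.76, SE 0.18, adjusted p = 2.38e-07). In contrast Gimap4, a GTPase of lymphocytes, was at 47, 51.7 and 41.7 FPKM and then 8.99 and 9.32 (log2 fold change -2.23, SE 0.17, adjusted p = 5.02e-06). Ebf1, the B cell factor, was at 3.99, 3.97 and 2.83 FPKM and then 0.0574 and 0.154 (log2 fold change -2.05, SE 0.25, adjusted p = 0.000124). In Endo the means were 48.5 FPKM for Gimap4 and 2.41 for Ebf1, against 46.8 and 3.6 in pre-HSCs. Tcf7 and Lck, which also fell, had means of 14.8 and 34.9 in Endo and 6.3 and 26.4 in pre-HSCs. Ighm fell too, but was at a mean of 0.0507 in Endo and 23.3 in pre-HSCs. Of 24 megakaryocyte and platelet genes 9 rose (37.5%, against 12% of all members) and 7 fell (29.2%, against 15%), with a median of 0.04. Gp9, a platelet receptor subunit, was at 4.51, 5.64 and 4.3 FPKM and then 31.1 and 16.9 (log2 fold change 2.05, SE 0.24, adjusted p = 8.76e-05). Vwf, the clotting factor shared by platelets and endothelium, was at 162, 164 and 197 FPKM and then 12.1 and 15 (log2 fold change -3.59, SE 0.39, adjusted p = 5.28e-05). F2r, a thrombin receptor of vessels, was at 137, 153 and 116 FPKM and then 25.5 and 27.4 (log2 fold change -2.31, SE 0.20, adjusted p = 1.05e-05). The integrin gene Itga2b, the platelet alpha chain, was at 7.12, 10.6 and 9.56 FPKM and then 30.1 and 16.5 (log2 fold change 1.22, SE 0.25, adjusted p = 0.00247), and it was under the 2-fold limit with FPKM scaled to equal totals (log2 fold change 0.99, adjusted p = 0.00871).

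Most leukocyte adhesion genes rose. Of 28 genes for leukocyte adhesion and cytoskeleton 20 rose, 4, Itga6, Itgb1, Itga9 and Fermt2, fell and 4 were not called (median log2 fold change 1.66). In 17 of the 28 (60.7%, against 22.8% of all members) pre-HSC replicate 3 was highest and replicate 2 lowest. Most macrophage genes had that order. Among the integrins Itga4, the alpha4 chain for homing, was at 8.4, 8.53 and 6.77 FPKM in pre-HSCs and 24.8 and 35.1 in FL HSCs (log2 fold change 1.78, SE 0.24, adjusted p = 0.000205), and Itgb2, the beta chain of leukocyte integrins, at 4.95, 4.49 and 6.31 FPKM and then 27 and 21.8 (log2 fold change 2.02, SE 0.27, adjusted p = 0.000226). Itga6, the laminin receptor chain, fell from 179, 173 and 154 FPKM to 25 and 32 (log2 fold change -2.54, SE 0.14, adjusted p = 6.14e-07). Itgb1, the common beta1 chain, fell from 311, 309.5 and 282 FPKM to 76.5 and 103 (log2 fold change -1.75, SE 0.16, adjusted p = 1.46e-05). The kindlins, which activate integrins, moved in opposite directions. Fermt2, the form of adherent cells, was at 60.0, 64.7 and 47.4 FPKM and then 1.03 and 0.428 (log2 fold change -5.09, SE 0.26, adjusted p = 3.27e-07). Fermt3, the blood form, was at 26.7, 21 and 43.4 FPKM and then 187 and 138 (log2 fold change 2.43, SE 0.26, adjusted p = 5.17e-05). Fermt2 was the higher of the pair in every pre-HSC library and Fermt3 in both FL libraries, and in pre-HSC replicate 3 their levels were close. Selplg, the selectin ligand PSGL-1, was at 5.98, 4.72 and 9.48 FPKM and then 47.2 and 47.6 (log2 fold change 2.69, SE 0.25, adjusted p = 1.63e-05). Was, the actin regulator of Wiskott-Aldrich syndrome, was at 17.7, 14.3 and 23.9 FPKM and then 121 and 97 (log2 fold change 2.51, SE 0.20, adjusted p = 7.54e-06).

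Genes for growth rose, and those for mitosis did not. All 43 tested genes of nucleolar ribosome biogenesis, which build rRNA and assemble ribosomes, had positive log2 fold changes (median 1.14), and 28 were called. That count was 17 with FPKM scaled to equal totals and 20 after quantile normalization, while none fell in these alternatives. Dkc1, the pseudouridine synthase of small nucleolar RNPs, was at 33, 44.8 and 31.3 FPKM in pre-HSCs and 148 and 183 in FL HSCs (log2 fold change 2.17, SE 0.22, adjusted p = 3.65e-05). Fbl, the rRNA methylase fibrillarin, was at 111, 129.5 and 138 FPKM and then 443 and 337 (log2 fold change 1.61, SE 0.16, adjusted p = 2.96e-05). Myc, a driver of growth genes, was at 26, 34.2 and 28.6 FPKM and then 144 and 121 (log2 fold change 2.13, SE 0.15, adjusted p = 3.54e-06). Of 27 genes of nucleotide, serine and one-carbon synthesis 18 rose and none fell (median 1.32; 14 rose with FPKM scaled to equal totals). Mthfd1, an enzyme of the folate cycle, was at 22.2, 22.1 and 22.4 FPKM and then 125 and 104 (log2 fold change 2.31, SE 0.14, adjusted p = 1.16e-06). Phgdh, the first enzyme of serine synthesis, was at 48.7, 46.5 and 52.3 FPKM and then 271 and 186 (log2 fold change 2.17, SE 0.19, adjusted p = 1.44e-05).

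DNA replication stood between these lists. Of 40 genes tested 10 rose (25%, against 12% of all members) and none fell, with 6 rising at equal totals. Their median log2 fold change was 0.78, and 0.54 at equal totals. A list of 12 reference genes, among them Actb and Hprt, had a median of 0.53, and 0.28 at equal totals, with 1 of them called. Pold2, a subunit of DNA polymerase delta, was at 64.2, 72.5 and 72.4 FPKM in pre-HSCs and 334 and 279 in FL HSCs (log2 fold change 2.12, SE 0.13, adjusted p = 1.19e-06). Mcm7, of the replicative helicase, was at 79.5, 82 and 82.1 FPKM and then 271 and 240.1 (log2 fold change 1.64, SE 0.13, adjusted p = 4.88e-06), while Mcm4 of the same complex was at 63.9, 62.9 and 56.5 FPKM and then 72.8 and 81.1 and was not called (log2 fold change 0.33, SE 0.12, adjusted p = 0.0464). None of the 31 genes of mitosis and chromosome segregation was called in the main test or any alternative, and their median was 0.01. Ccna2, cyclin A2, was at 69.6, 60.6 and 64.8 FPKM in pre-HSCs and 68.4 and 63.4 in FL HSCs, with the libraries overlapping. Cdk1 was at 208, 222 and 232 FPKM and then 197 and 126 (log2 fold change -0.48, SE 0.24, adjusted p = 0.114). Regulators of the G1 phase changed in both directions. Cdk6, the G1 kinase of blood progenitors, was at 3.12, 2.88 and 2.33 FPKM and then 18.3 and 17.6 (log2 fold change 2.33, SE 0.18, adjusted p = 4.55e-06). Cdkn1a, which encodes the CDK inhibitor p21, was at 16.9, 12.8 and 37 FPKM and then 6.07 and 2.49 (log2 fold change -2.09, SE 0.43, adjusted p = 0.00274). E2f8, a late repressor of the E2F family, was at 8.62, 8.51 and 7.16 FPKM and then 24.8 and 18.6 (log2 fold change 1.31, SE 0.23, adjusted p = 0.00113), and E2f5 at 29, 26 and 21.8 FPKM and then 7.16 and 8.92 (log2 fold change -1.55, SE 0.19, adjusted p = 0.00011).

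Of the 10 replication genes that rose, each with a promoter in the same table, 3 (30%) held the E2F word TTTCCCGC or its reverse complement, against 2.12% of the promoters of the members and 1.11% of all. The promoters of Mcm7 and Cdc6, a loader of the helicase, are given as the 200 bases that end at the start, with the word, which reads as its reverse complement in both, in capitals. Mcm7 lies at chr5:138171884-138172083 (minus strand) and Cdc6 at chr11:98907951-98908150 (plus).
Mcm7: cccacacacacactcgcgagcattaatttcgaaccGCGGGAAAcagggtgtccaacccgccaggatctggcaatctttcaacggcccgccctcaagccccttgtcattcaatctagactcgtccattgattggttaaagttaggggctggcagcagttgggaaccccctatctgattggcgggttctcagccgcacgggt
Cdc6: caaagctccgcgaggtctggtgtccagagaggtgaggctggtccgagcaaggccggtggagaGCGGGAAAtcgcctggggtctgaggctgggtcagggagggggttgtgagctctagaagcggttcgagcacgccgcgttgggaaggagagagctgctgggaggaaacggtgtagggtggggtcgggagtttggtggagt
The word began 165 bases before the start in Mcm7 and 138 before it in Cdc6.

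**Figure D4:**
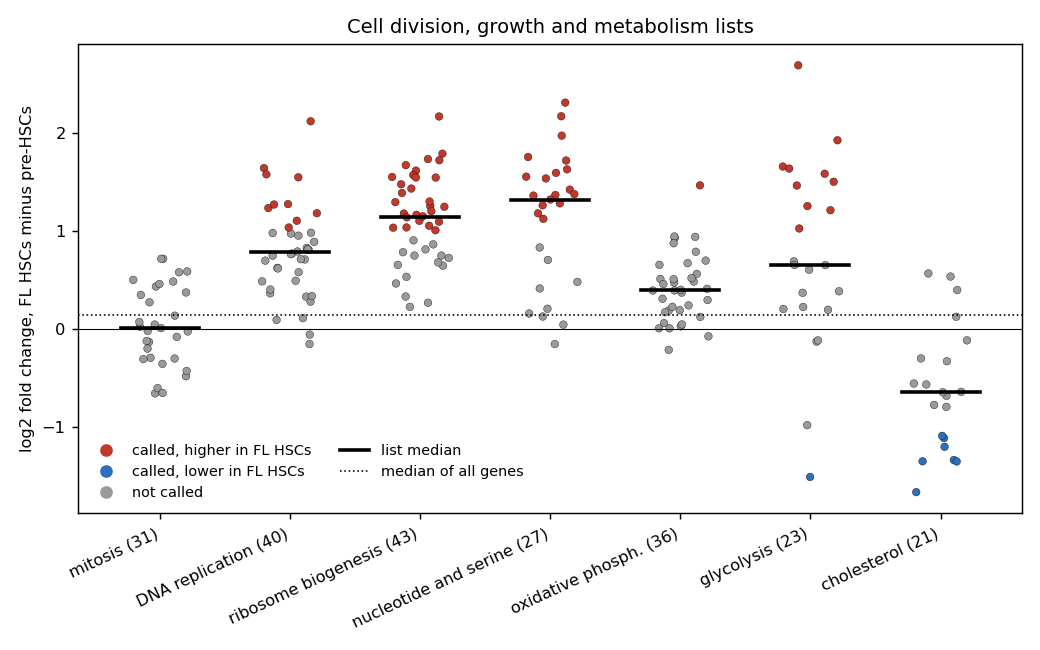
Points are genes of 7 lists, at their log2 fold change of FPKM + 1 from pre-HSCs to FL HSCs, red if called higher and blue if called lower in FL HSCs; thick bars are list medians and the dotted line is the median of all genes, 0.14. The medians of ribosome biogenesis (1.14) and nucleotide synthesis (1.32) lie above that line, that of mitosis (0.01) near 0 and that of cholesterol genes (-0.65) below.

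Lists of energy metabolism differed. Of 36 oxidative phosphorylation genes 1 rose (2.78%, against 12% of all members) and none fell, with a median log2 fold change of 0.39. That gene was Sdha of complex II, from 119, 116 and 126 FPKM to 311 and 356 (log2 fold change 1.46, SE 0.14, adjusted p = 1.81e-05). Of 23 genes of glycolysis and lactate 10 rose (43.5%, against 12%) and 1 fell. Their median was 0.65, against 0.53 for the reference genes. Only 6 rose without pre-HSC replicate 2, and fewer rose without FL replicate 1 as well. Hk1, the first enzyme of glycolysis, was at 27.2, 28.4 and 27.1 FPKM in pre-HSCs and 196 and 172 in FL HSCs (log2 fold change 2.69, SE 0.15, adjusted p = 6.61e-07). The glucose transporter Slc2a1 fell, from 112, 133 and 132 FPKM to 44.9 and 41.5 (log2 fold change -1.51, SE 0.18, adjusted p = 8.25e-05). The lactate transporter Slc16a1 was at 11.9, 12.7 and 12.1 FPKM and then 37 and 43.4 (log2 fold change 1.64, SE 0.14, adjusted p = 1.27e-05). Of 21 genes of cholesterol synthesis and uptake 7 fell (33.3%, against 15% of all members) and none rose (median -0.65). Cyp51, of the sterol pathway, was at 23.5, 25.9 and 19.5 FPKM and then 7.78 and 8.86 (log2 fold change -1.36, SE 0.16, adjusted p = 8.85e-05). Epas1, the hypoxia factor of endothelium, was at 48.9, 55.6 and 43.4 FPKM and then 0.98 and 1.19 (log2 fold change -4.59, SE 0.17, adjusted p = 6.17e-08), while its partner Arnt was at 21.9, 20.2 and 19.1 and 18.7 and 23.9 and was not called.

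Immediate early genes, which cells switch on within minutes of a stimulus, were higher in pre-HSCs. Of 22 tested 16 fell and 1, Myc, rose (median log2 fold change -3.02). Fos was at 140.2, 96.5 and 177 FPKM in the pre-HSC libraries and 0.213 and 0.741 in the FL libraries (log2 fold change -6.54, SE 0.78, adjusted p = 9.28e-05). Jun, its partner in the AP-1 factor, was at 151, 171 and 161 FPKM and then 5.8 and 7.5 (log2 fold change -4.41, SE 0.52, adjusted p = 8.88e-05). Atf3, a stress factor, was at 60.6, 38.4 and 106 FPKM and then 0.696 and 0.122 (log2 fold change -5.53, SE 0.36, adjusted p = 1.53e-06). Klf2, a factor that flow induces in endothelium, was at 118, 111 and 117 FPKM and then 2.3 and 0.767 (log2 fold change -5.59, SE 0.88, adjusted p = 0.000582). In every one of these the populations did not overlap. The summed FPKM of the list was 1503, 1308 and 1949 in pre-HSCs and 291 and 254 in FL HSCs, and across the study it was also uneven within a population, at 2311 and 516 in the BM HSC libraries. That unevenness enters the SEs of this list, since all populations share the spread. Heat shock genes divided: the stress-induced Hspa1a was at 18.2, 23.2 and 25.2 FPKM and then 0.541 and 0.308 (log2 fold change -4.02, SE 0.42, adjusted p = 3.74e-05), while Hsp90aa1, a chaperone of proteins in use, rose from 143, 161 and 104 FPKM to 429.9 and 597 (log2 fold change 1.91, SE 0.20, adjusted p = 4.01e-05). The dissociation differed between the populations as given above, and its part in these values cannot be told apart from theirs.

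Inflammatory genes fell, and in the pre-HSC libraries they varied with macrophage genes. Of 33 inflammatory and NF-kB genes tested 17 fell (51.5%, against 15% of all members) and 1 rose (3.03%, against 12%). Their median log2 fold change was -1.41. Ccl3, a chemokine of myeloid cells, was at 63.8, 18.1 and 96.3 FPKM in pre-HSCs, was listed at 0 in 1 FL library and was at 0.532 in the other (log2 fold change -5.32, SE 0.68, adjusted p = 0.000146). Tnf was at 13.1, 3.85 and 22.6 FPKM and then 0.885 and 0.695 (log2 fold change -2.71, SE 0.52, adjusted p = 0.00196). Il1b was at 13.7, 3.49 and 34.5 FPKM in pre-HSCs, at 0.417 in 1 FL library and listed at 0 in the other (log2 fold change -3.48, SE 0.66, adjusted p = 0.00176). Pre-HSC replicate 3 was highest and replicate 2 lowest for each of them. The same held for 17 of the 20 macrophage genes tested (85%) and 23 of the 33 inflammatory genes (69.7%), against 22.8% of all members, and for 15 of the 22 immediate early genes (68.2%). The gene that rose, Irak3, a brake on Toll-like receptor signals, was at 2.08, 3.02 and 3.56 FPKM and then 6.51 and 10.5 (log2 fold change 1.27, SE 0.27, adjusted p = 0.00321), and it was not called without FL replicate 2.

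Of the 20 macrophage genes tested 9 fell (45%, against 15% of all members) and 1 rose (5%, against 12%). Their median log2 fold change was -1.80. Among the defining genes C1qa and Emr1 overlapped between the populations, and Mrc1 did not. C1qa, of complement, was at 104, 37.5 and 245 FPKM in pre-HSCs and 69.9 and 10.6 in FL HSCs (log2 fold change -1.80, SE 0.79, adjusted p = 0.0835). Emr1, which encodes F4/80, was at 32, 10.4 and 54 FPKM and then 20.0 and 3.27 (log2 fold change -1.54, SE 0.70, adjusted p = 0.0922). Mrc1, the mannose receptor, was called, at 68.8, 22.9 and 104 FPKM and then 4.16 and 1.29 (log2 fold change -4.03, SE 0.55, adjusted p = 0.00023). Marco, a scavenger receptor of resident macrophages, was the gene that rose, from 0.428, 0.63 and 0.0564 FPKM to 48.4 and 8.36 (log2 fold change 3.99, SE 0.54, adjusted p = 0.000226). None of the list's defining genes was at 0 in any of the 5 libraries. The number of falls was 17 without pre-HSC replicate 2 and 15 without FL replicate 1, and 5 without any 1 of the other 3 libraries. The inflammatory list had 17 falls without pre-HSC replicate 3. Macrophage genes summed to 2234 and 834 FPKM in pre-HSC replicates 1 and 2, which that fit kept. The part of macrophage RNA in the inflammatory falls was not tested. The FL sort excluded cells stained by lineage antibodies, CD11b among them. Pre-HSCs had to be positive for endothelial proteins and Kit, and no CD11b antibody was listed for their sort. Whether macrophages passed these gates was not tested. Itgam, which encodes CD11b, was at 4.78, 2.32 and 7.99 FPKM in pre-HSCs and 3.27 and 4.49 in FL HSCs and was not called.

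**Figure D5:**
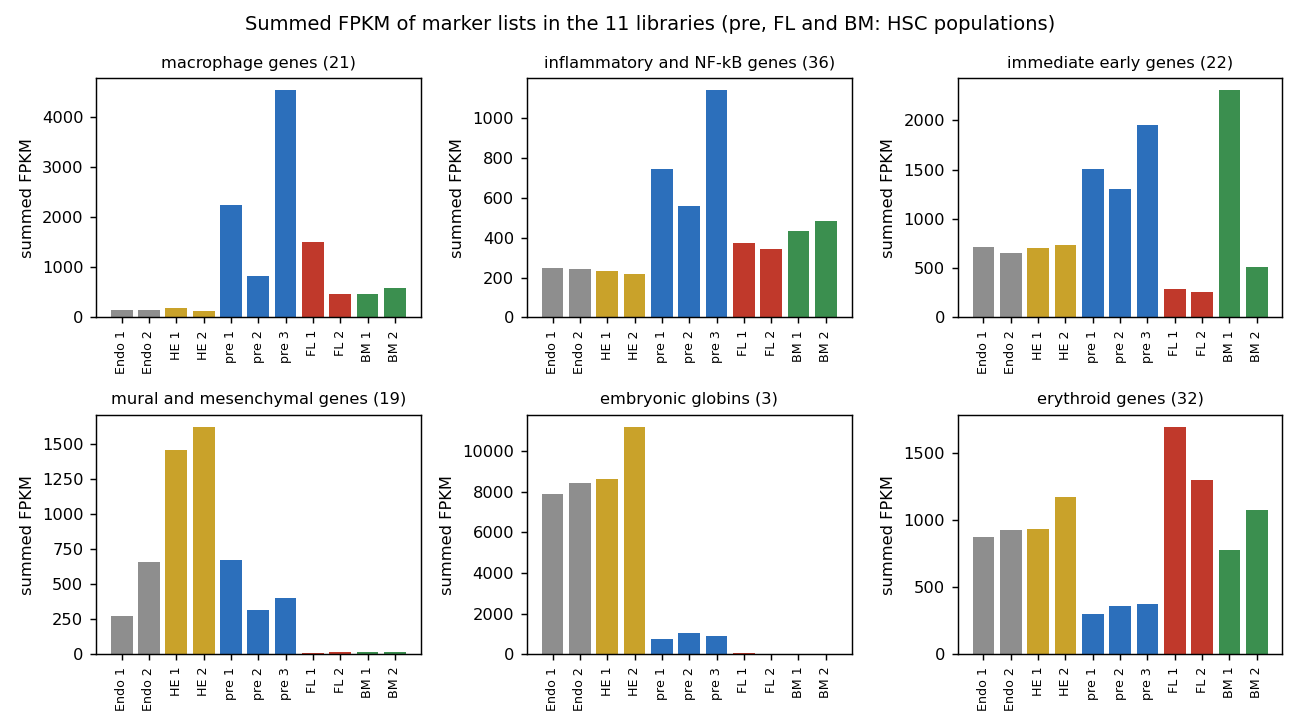
Bars give the summed FPKM of 6 lists (number of genes in parentheses) in each of the 11 libraries of the study, colored by population. Macrophage and inflammatory sums are highest in pre-HSC replicate 3, embryonic globin sums are highest in Endo and HE, and the immediate early sum is highest in 1 BM HSC library.

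Antigen presentation rose in part. Of 16 MHC class I genes tested 8 rose (50%, against 12% of all members) and none fell (against 15%). Their median log2 fold change was 0.92, and at equal totals 7 rose and 1, Pdia3, fell. Psmb8, a subunit of the immunoproteasome, was at 11.9, 7.31 and 30.3 FPKM in pre-HSCs and 119 and 88.4 in FL HSCs (log2 fold change 2.79, SE 0.44, adjusted p = 0.000588). Tap2, of the peptide transporter, was at 2.98, 2.57 and 5.5 FPKM and then 24.5 and 22 (log2 fold change 2.42, SE 0.41, adjusted p = 0.000858). H2-K1, a classical class I chain, was at 34.8, 24 and 79.6 FPKM and then 153 and 146 (log2 fold change 1.85, SE 0.40, adjusted p = 0.00379), while H2-D1 was at 89.4, 82.8 and 149.6 and 114 and 104 and was not called. Such genes have near-identical copies, and their reads may be split among them. In all of these, pre-HSC replicate 3 was the highest of its population. The order of the macrophage genes, replicate 3 highest and replicate 2 lowest, held in 11 of the 16 class I genes (68.8%). It held in 24 of 34 interferon genes (70.6%) and in 22.8% of all members. The part of macrophage RNA in these values was not tested. Of 34 genes of the interferon response 5 rose and 1 fell (median -0.02), or 14.7% and 2.94%, against 12% and 15% of all members, with 2 rising at equal totals. Rsad2, viperin, was the gene that fell, from 5.66, 5.83 and 8.76 FPKM to 0.672 and 1.43 (log2 fold change -1.92, SE 0.27, adjusted p = 0.000301). Isg20, an exonuclease, was at 1, 1.71 and 2.49 FPKM and then 9.18 and 10.8 (log2 fold change 2.04, SE 0.25, adjusted p = 0.000116).

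Regulators of chromatin and survival changed in part. Of 23 Polycomb and DNA methylation genes 8 rose (34.8%, against 12% of all members) and 1 fell (median log2 fold change 0.63), and 4 rose at equal totals. Cbx7, a chromobox reader of HSC self-renewal, was at 0.763, 0.568 and 0.981 FPKM in pre-HSCs and 7.51 and 9.06 in FL HSCs (log2 fold change 2.39, SE 0.26, adjusted p = 5.78e-05). Dnmt3b, a DNA methyltransferase of embryonic cells, was at 23.2, 30.5 and 25.9 FPKM and then 94.2 and 99.3 (log2 fold change 1.84, SE 0.16, adjusted p = 1.06e-05). Ezh1 and Ezh2, the alternative catalytic subunits of PRC2, were not called, at 11.8, 9.89 and 8.64 and 8.17 and 9.64 FPKM for Ezh1 and at 48.1, 50.8 and 39.7 and 57.9 and 74.3 for Ezh2. Of 15 Bcl2 family genes 5 fell (33.3%, against 15% of all members) and 1 rose (6.67%, against 12%), with a median of -0.28. The 5 that fell, Bmf, Bik, Bcl2l11, Pmaip1 and Bok, and the one that rose, Bid, all promote cell death. Bmf was at 13.9, 15.3 and 14.1 FPKM and then 0.57 and 0.5 (log2 fold change -3.33, SE 0.21, adjusted p = 1.17e-06). Bik was at 9.73, 11.1 and 12.5 FPKM and then 0.444 and 0.457 (log2 fold change -3.05, SE 0.17, adjusted p = 7.17e-07). Bcl2l11, which encodes Bim, was at 21.2, 18.2 and 18.3 FPKM and then 6.56 and 4.02 (log2 fold change -1.71, SE 0.32, adjusted p = 0.00153). The survival genes Bcl2, Bcl2l1 and Mcl1 were not called, and Mcl1 was at 87.7, 77.6 and 115 FPKM in pre-HSCs and 58 and 60.3 in FL HSCs.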

How the data were processed

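RNA-seq of 11 libraries of 5 sorted mouse populations was used. The authors aligned reads to mm9 with TopHat, kept unique matches and counted them over the genes of Ensembl. Poly(A) RNA was sequenced. Without versions, Cufflinks, Subread, featureCounts and edgeR appear as well in the processing notes of the submitters. The authors deposited 1 table of FPKM per gene and library, and which tool produced them is unstated. Of 37820 gene IDs, 37038 (97.9%) had a symbol and position in GENCODE M1 (NCBIM37).

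A linear model of log2(FPKM + 1) was fitted (limma 3.58.1 under R 4.3.3, eBayes with a trend) for 14708 genes with at least 1 FPKM in at least 2 of the 11 libraries, with population as the factor, so that FL HSCs with 2 libraries borrow their spread from the others. Of these, 3677 (25%) were called, 1637 up (11.1%) and 2040 down (13.9%), p-values being adjusted (Benjamini-Hochberg) over all 14708. On simulated data for this contrast and these genes, 10, 40, 45 and 49 of 50 genes changed 2-, 4-, 8- and 16-fold were called, and 1 unchanged gene. The noise was normal, and the change was added to the FL and BM libraries alike. It was added only to genes whose mean log2(FPKM + 1) was above 2. These numbers therefore do not describe a change in FL HSCs alone or in genes with low FPKM. Low FPKM values moved in steps of whole reads, from which only a relative depth was estimated (pre-HSC replicate 1 held 1.45 times the reads of FL replicate 1).

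The members and the gene lists were chosen with earlier results of these data known. Genes are named by a rule: the 12 largest rises and 12 largest falls with a mean of at least 10 FPKM and no overlap between libraries, the genes of the sort gates, and in each list the first 4 genes, up to 4 called genes in each direction and any called against the rest. Others were named after their values were seen, and so were the promoter words. Promoters are the first listed per gene in the RefSeq table, and 15 words were searched on both strands. Tables used pandas 2.3.3 and numpy 2.4.6, and plots matplotlib 3.10.9, under Python 3.11.15. Spi1, Irf8, Cdt1 and some other listed genes are not reported here. Alternatives are given in the closing section.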

Additional observations from a re-analysis of the deposited data

How the results depend on the processing

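The counts of called genes stayed within 1.5 times the reported ones under all 17 alternatives, at 3332 to 4001 in all, 1102 to 1784 rises and 1834 to 2335 falls, and 2465 of the 3656 calls (67.4%) were made in every alternative, with none turned. Leaving out 1 library gave 3363 to 3626 calls. The largest shift came from scaling: equal totals and the median of ratios moved the median log2 fold change of all members from 0.14 to -0.07 and -0.06, so rises of under 1.2-fold and lists close to the median have no firm direction. The genes of the sort gates called were 6 to 8 of 11. Among the 248 named genes that were called, 203 were called in every alternative, 45 were lost in at least 1, and none changed sign. Of 69 named genes not called, 15 were called in at least 1.

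The list counts that moved by over 1.5 times were mainly those of the macrophage list, with 5 to 17 falls, and the interferon list, with 2 to 8 rises and 1 to 6 falls. Macrophage falls were 5 with no filter, at an adjusted p under 0.01, with only the 5 libraries and without each of 3 libraries, and 17 without pre-HSC replicate 2. Interferon rises were 2 at equal totals and with the median of ratios and 8 with the replicate block or without pre-HSC replicate 3, and falls were 6 without pre-HSC replicate 2. Ribosome biogenesis (17 to 28 rises), replication (6 to 13) and chromatin (4 to 8) moved with scaling or a library. MHC class II rises were 3 without pre-HSC replicate 1, against 6. Where a population kept 1 library after FL replicate 1 or 2 was left out, that library was assumed to vary like the other populations.

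With the replicate number as a block, 3529 genes were called, 1592 up and 1937 down. Number 3 exists only in pre-HSCs, so that fit in effect drops pre-HSC replicate 3. The numbers did not pair the samples: the deviations of same-numbered libraries correlated at -0.11 (number 1) and 0.11 (number 2) between pre-HSCs and FL HSCs. The depth is unknown, so what it limits could not be given.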

Other observations

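The levels in the other populations of the study set the changes in a wider course. Of the 1626 rising genes 912 (56.1%) peaked in FL HSCs by their mean, and BM HSCs held the peak of 690 (42.4%). Of the 2030 falling genes 975 (48%) peaked in pre-HSCs, 367 in Endo and 646 in HE, and 1000 (49.3%) had a mean under 1 FPKM in BM HSCs, against 13% of all members. These shares follow in part from the choice of the genes and are a description. Pklr was at a mean of 5.86 FPKM in HE, 78.2 in FL HSCs and 3.74 in BM HSCs, so that its level in FL HSCs stood alone among the populations. Ermap was at 2.11, 68.8 and 5.07 FPKM in the same order. S100a8 was listed at 0 in all Endo and HE libraries and was at 14.8 FPKM in BM HSCs. Fos was at a mean of 46.8 FPKM in HE and 0.477 in FL HSCs, and at 389.7 and 36 in the BM HSC libraries, which thus differed widely.

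Some of the largest rises were in genes named as copies or annotated as pseudogenes. Rps26-ps1, whose symbol marks a copy of a ribosomal protein gene, was at 4.95, 3.95 and 4.55 FPKM in the pre-HSC libraries and 357 and 179 in the FL libraries (log2 fold change 5.54, SE 0.26, adjusted p = 1.95e-07), and its mean was 236 in Endo, 251 in HE and 176 in BM HSCs. Gm13394, annotated as a pseudogene, was at 0.906, 0.971 and 0.816 FPKM and then 184 and 138 (log2 fold change 6.40, SE 0.22, adjusted p = 3.18e-08), with means of 142 in Endo, 128 in HE and 41.6 in BM HSCs. Both were thus lower in pre-HSCs than in any other of the 5 populations. Of 36 members whose symbol marks a ribosomal protein pseudogene 11 rose (30.6%) and 1 fell, against 12% and 15% of all members. Their reads can be split with the parent genes, and read length or matching in the pre-HSC libraries was not tested. Of the 75 ribosomal protein genes none was called, with a median log2 fold change of 0.54, yet in 39 (52%) the 3 pre-HSC libraries lay below all 8 other libraries, against 5.56% of all members.

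Stmn2, a microtubule regulator known from neurons, was at 64.8, 67.7 and 75.5 FPKM in the pre-HSC libraries and was listed at 0 in both FL libraries, while its mean was 20.1 in HE. Of 7 neural and epithelial genes tested 6 fell, and their summed FPKM was 90.4, 71.8 and 69.2 in pre-HSCs and 21 and 19.5 in FL HSCs. Nes, the intermediate filament nestin, was at 38.1, 40.9 and 32.8 FPKM in pre-HSCs and 4.21 and 5.07 in FL HSCs (log2 fold change -2.76, SE 0.17, adjusted p = 9.84e-07), and the epithelial Epcam at 5.09, 2.48 and 3.51 FPKM and then 0.662 and 0.378. Hnf4a, a liver factor, was at 0.186, 0.494 and 0.654 FPKM in pre-HSCs and 7.45 and 5.39 in FL HSCs (log2 fold change 2.36, SE 0.22, adjusted p = 2.18e-05), while the hepatocyte product Alb was at 0.0169, 1.08 and 0.0455 and 10.8 and 2.7, and the summed FPKM of 14 hepatocyte genes was 37.2, 32.8 and 103 in pre-HSCs and 81.7 and 24.5 in FL HSCs. The part of liver cells in the FL values was not tested.

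Short words were looked for on both strands in the RefSeq promoters of 1117 rising and 1354 falling genes, and their shares are a description with no test. The ETS word CCGGAAGT stood in 7.07% of the rising and 1.7% of the falling genes' promoters, against 4% of all 27025 promoters and 8.17% of those of all members. For the other words the shares are given in the order rising genes, falling genes, all members and all promoters. The E-box CACGTG stood in 11.9%, 7.39%, 10.4% and 7.24%. Of the E2F words, TTTCCCGC stood in 2.95%, 1.4%, 2.12% and 1.11%, and the form TTTGGCGC in 0.985%, 0.222%, 1.06% and 0.537%. The CRE word TGACGTCA stood in 2.42%, 2.22%, 3.25% and 1.88%, so that both groups were below the members' share. The AP-1 word TGACTCA stood in 3.94%, 4.8%, 3.31% and 5.17%. The shares of the Rbpj word GTGGGAA were 5.82%, 6.65%, 6.02% and 6.39%. The shares of the Runx word TGTGGTTT were 1.43%, 0.812%, 1.11% and 1.86%. The TATA word TATAAA stood in 7.52%, 9.38%, 6.74% and 14.2%, above the members' share in both groups. The shares of the NF-kB word GGGANTTCC were 2.24%, 1.92%, 2.43% and 1.69%. Longer words for the SRE, SRF and ISRE, given here by name, stood in at most 0.806% of either group.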
